A study of Mus musculus with 21 samples.

Results

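RNA bisulphite sequencing was compared between back skin of 4 NSun2 -/- mice and 4 wild-type (WT) mice. The compared features were single cytosines of the transcriptome covered by 10 reads or more in no fewer than 3 WT and 3 NSun2 -/- libraries. Of 897815 cytosines listed in at least 1 library, 122736 met this rule. An unconverted read was seen at 118472 of them, and these were tested. The libraries are 8 of the 21 samples of the series. All mice were males on a C57Bl6/J and CBA F1 background, with the skin taken in the anagen phase of the hair cycle at postnatal day 25. The NSun2 -/- mice carry a gene trap within an intron of Nsun2 and come from a single gene-trap line, and the WT mice came from the same breedings. Both genotypes were otherwise untreated, and the 4 libraries of each were described as independent biological replicates.

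NSun2 is an RNA methyltransferase that adds a methyl group to carbon 5 of cytosine, giving 5-methylcytosine (m5C). Its best known substrates are cytosolic tRNAs, where it acts at the junction between the variable loop and the TΨC arm (positions 48 to 50) and at the wobble base of tRNA Leu CAA (position 34). The neighbouring anticodon loop position 38 is the substrate of another enzyme, Dnmt2. Bisulphite turns unmodified cytosine into uracil and leaves m5C as cytosine, so the percent of unconverted reads at a cytosine measures m5C together with cytosines that bisulphite failed to reach, for instance within stable stems.

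The libraries differed in depth and in their unconverted background. The WT libraries held 24515961 to 37612638 reads summed over listed cytosines. The NSun2 -/- libraries held 53960568, 8681271, 60455763 and 52285061 reads, so that NSun2 -/- replicate 2 was the shallowest library. The median cytosine of the compared set had 19 to 23 reads in WT and 65, 14, 65 and 41 reads in NSun2 -/- libraries. Over coding exons, where the unconverted percent is mostly background, the mean was 1.87% to 3.59% in WT libraries and 3.33%, 9.13%, 1.99% and 2.78% in NSun2 -/- libraries. At cytosolic tRNA cytosines 5′ of the anticodon it was 6.58%, 6.16%, 7.34% and 14.1% in WT and 26.2%, 34.9%, 1.28% and 21.5% in NSun2 -/- libraries. NSun2 -/- replicate 3 thus had the lowest tRNA background of all 8 libraries and the other NSun2 -/- libraries the 3 highest. Cytosolic tRNA genes took 39.6% to 51.1% of the reads over compared cytosines in WT and 15.1% to 26.4% in NSun2 -/- libraries.

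The targeted gene was examined first. Nsun2 (ENSMUSG00000021595.11, chr13:69672624-69774658, plus strand, mm9) had 31, 23, 48 and 43 listed cytosines in the WT libraries and none with 10 reads in any NSun2 -/- library. All of the WT cytosines lay in coding exons 13 and 19 of 19, which are downstream of the trap. Among marker lists, reads over coding-exon cytosines, scaled to 1000000 such reads per library, were summed over each list. For 4 hair follicle genes (Krt25, Krt71, Krt27, Tchh) the sum ranged from 25021 to 184632 in WT and from 820 to 9110 in NSun2 -/- libraries, so the genotypes did not overlap. Reads of 2 immune genes (Ptprc, Cd74) ranged from 0 to 12.3 in WT and from 35.6 to 73.4 in NSun2 -/- libraries. Cd74 had 6, 0, 0 and 0 listed cytosines in WT and 73, 7, 49 and 47 in NSun2 -/- libraries. Ptprc had 3, in NSun2 -/- replicate 4 only. The lists for keratinocytes, fibroblasts, skeletal muscle, adipocytes, melanocytes and blood overlapped between genotypes, with fibroblast collagens at 208700 to 529463 in WT and 309967 to 375445 in NSun2 -/- libraries. Endothelial markers were at 0 in every WT library and reached 11.2 in NSun2 -/- libraries, from Pecam1 in replicates 1 and 3 only. Cytosines with fewer than 10 reads in a library were not listed, so a 0 does not mean that no read was present. The WT libraries were also shallower than NSun2 -/- replicates 1, 3 and 4. Fewer cells of a type and less RNA per cell cannot be told apart in such bulk RNA, and the part of these differences in the methylation results was not tested.

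A cytosine was called when its adjusted p was below 0.05 in edgeR's quasi-likelihood test and the genotype means differed by at least 10 percentage points. Of the tested cytosines, 180 were lower in NSun2 -/- skin (0.152%) and 141 were higher (0.119%). With limma on the log2 odds of the same reads, 154 were lower (0.13%) and 23 higher (0.0194%), and 144 lower and 23 higher cytosines were called by both tools. The genotypes were completely apart, every NSun2 -/- value lying below every WT value, at 162 of the 180 lower cytosines. Every NSun2 -/- value lay above every WT value at 32 of the 141 higher ones. Both counts use only libraries with at least 10 reads at the cytosine. Among all tested cytosines, such a separation was found at 890 in the lower direction (0.751%) and at 4288 in the higher direction (3.62%). The lower calls remained in number between 130 and 210 when single libraries were left out, whereas the higher calls ran from 11 without NSun2 -/- replicate 1 to 530 without replicate 3. These fits still required 3 covered libraries of each genotype, so fewer cytosines could be tested. Their number ran from 80782 without NSun2 -/- replicate 1 to 117410 without NSun2 -/- replicate 2.

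**Figure D1:**
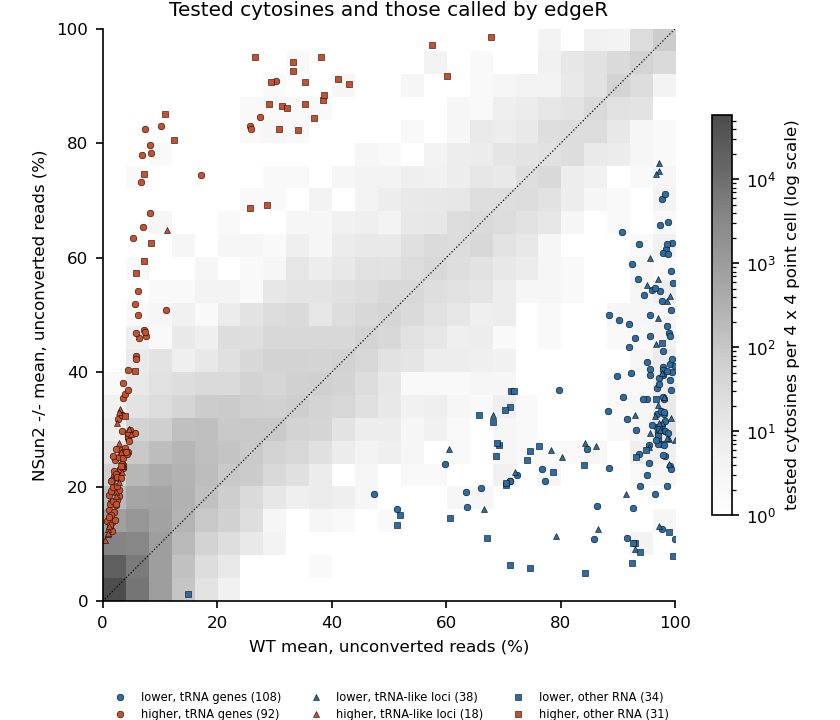
Mean percent of unconverted reads in WT (x axis) and NSun2 -/- (y axis) skin for every tested cytosine, in grey as the number of cytosines per cell of the grid on a log scale. Blue symbols are the 180 called lower and red symbols the 141 called higher cytosines, by kind of locus, and the dotted line marks equal means. Most tRNA cytosines called lower lie far to the right, with WT means near 100%.

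Cytosolic tRNA genes carried 108 of the 180 lower calls, and 107 of these were at positions 48 to 50. There were 88 tRNA genes with compared cytosines, and 81 of them, with 38 distinct sequences from 22 isoacceptors and 13 isotypes, had one at positions 48 to 50. Of the 176 cytosines tested at these positions 107 fell, in 57 genes, which is 60.8% against 0.152% of all tested cytosines. Limma also called 93 of the 107. The genotypes were apart at 106 of them. Of the 69 not called lower, 24 had a WT mean under 20%, among them the 1 called higher. The sequences that carry these changes are given 5′ to 3′ as gene sequence in mm9, with every cytosine that fell in capitals:
Asp GTC, chr1:173032502-173032573, plus strand: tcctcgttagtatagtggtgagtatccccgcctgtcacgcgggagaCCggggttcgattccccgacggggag
Gly GCC, chr8:113154453-113154523, minus strand: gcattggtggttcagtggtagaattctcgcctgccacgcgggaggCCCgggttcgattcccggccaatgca
Met CAT, chr13:23622217-23622288, minus strand: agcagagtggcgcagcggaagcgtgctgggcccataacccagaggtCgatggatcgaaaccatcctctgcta
Thr CGT, chr11:79518152-79518223, plus strand: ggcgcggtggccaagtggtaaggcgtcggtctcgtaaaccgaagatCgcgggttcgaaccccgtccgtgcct
Val TAC, chr19:12086756-12086828, plus strand: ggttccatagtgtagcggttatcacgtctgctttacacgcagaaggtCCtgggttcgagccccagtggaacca
Leu CAA, chr13:21292073-21292177, plus strand, with its intron: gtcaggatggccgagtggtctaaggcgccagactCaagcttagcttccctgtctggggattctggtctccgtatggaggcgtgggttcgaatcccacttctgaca
Tyr GTA, chr5:31190456-31190544, plus strand, with its intron and without a call: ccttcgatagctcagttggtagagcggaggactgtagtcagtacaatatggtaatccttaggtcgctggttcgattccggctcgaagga

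The printed genes are those with the highest median coverage of their isoacceptor, and for Leu CAA the gene with a covered wobble cytosine. Several tRNA genes share one sequence (8 genes for the printed Gly GCC and Asp GTC sequences, 7 for Met CAT), so which gene a read came from is uncertain.

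Over all 10 Gly GCC genes the mean at positions 48 to 50 went from 86.3% ± 1.18 to 33.4% ± 2.50 (SD, n = 4 and 4), a difference of -52.9 points, with 29 of 30 cytosines called. In the printed Gly GCC gene, the deepest of those printed, with 8175 to 151530 reads per library and cytosine, C48, C49 and C50 all fell. At C50 the unconverted percent was 97.7, 97.4, 98.1 and 97.8 in WT and 17.8, 9.69, 10.6 and 12.1 in NSun2 -/- libraries, a difference of -85.2 points (edgeR adjusted p = 1.1e-57). C49 fell from 91.5% ± 3.25 to 11.02% ± 0.515 (SD, n = 4 and 4), and C48 from 96.9% ± 0.654 to 27.5% ± 8.89. The loss was smaller in other Gly GCC genes, with C50 going from 94.5% to 53.5% in one on chromosome 13 and from 93.7% to 62.4% in one on chromosome 8. In the printed gene all NSun2 -/- values lay far below all WT values, and at C49 the 4 NSun2 -/- libraries spanned 10.5% to 11.7%, a smaller spread than the 86.8% to 93.9% of WT.

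In tRNA Asp GTC, C48 was 96.3%, 97.7%, 96.8% and 96.6% unconverted in WT and 33.7%, 50.6%, 12.8% and 24.6% in NSun2 -/- libraries. C49 was 97.9%, 97.9%, 98.7% and 98.6% in WT and 31.7%, 40.5%, 9.85% and 19.3% in NSun2 -/- libraries. Both cytosines fell, by 66.4 and 72.9 points (edgeR adjusted p = 5.4e-16 and 2.6e-22). The remaining unconverted percent in NSun2 -/- skin was highest in replicate 2 and lowest in replicate 3, the libraries with the highest and lowest tRNA background, and the part of that background in the remainder was not tested.

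tRNA Met CAT, which has a single cytosine in this stretch, went from 99.7%, 99.1%, 99.3% and 98.9% at C48 to 16.4%, 9.92%, 44.9% and 21.2% (edgeR adjusted p = 2.2e-22). Here the highest NSun2 -/- value was that of replicate 3, in contrast to Asp GTC. tRNA Thr CGT was 100% unconverted at C48 in the 3 WT libraries that covered it, and 11.9%, 14.3% and 6.25% in 3 NSun2 -/- libraries, on 10 to 42 reads (edgeR adjusted p = 3.1e-06). tRNA Val TAC fell at C48 from 98.7% ± 0.906 to 29.4% ± 8.55 and at C49 from 95.3% ± 1.18 to 27.3% ± 12.2 (SD, n = 4 and 4).

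In tRNA Glu TTC the change was uneven between neighbouring cytosines, with C49 falling from 99.1% ± 0.0579 to 41.4% ± 11.2 (SD, n = 4 and 4), C50 from 99.2% ± 0.279 to 46.3% ± 9.14, and C48 at 15.6% ± 3.76 in WT and 33.4% ± 19.1 in NSun2 -/- skin without a call.

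In the most covered Gly CCC gene, on chromosome 6, C49 fell from 98.8% ± 0.142 to 66.2% ± 2.55 and C50 from 98.2% ± 0.71 to 71.1% ± 4.00, so that over 60% of reads stayed unconverted in every NSun2 -/- library. In another Gly CCC gene, on chromosome 17, C49 fell from 91.9% to 44.4% and C50 from 93.0% to 45.9%, with NSun2 -/- values of 34.9% to 55.2% and 29.6% to 67.8%. C48 of the chromosome 6 gene, at 76.6% ± 4.11 in WT and 60.4% ± 4.37 in NSun2 -/- skin, did not pass the test although its groups were apart.

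In other tRNAs one NSun2 -/- library differed from the other three. C49 of Val CAC was 98.6%, 97.2%, 97.8% and 97.6% in WT and 80.5%, 82.7%, 4.44% and 75.5% in NSun2 -/- libraries, and it fell (edgeR adjusted p = 3.3e-04). Replicate 3, at 4.44% on at least 71 reads, stood far from the other NSun2 -/- libraries at this cytosine. C48 of the same gene, at 94.9%, 90.3%, 95.4% and 93.4% in WT and 74.3%, 73.4%, 5.56% and 71.9% in NSun2 -/- libraries, fell as well (edgeR adjusted p = 0.023), but lost its call when any one library other than NSun2 -/- replicate 2 was left out, with a difference of -20.3 points without NSun2 -/- replicate 3. In Gly TCC the same library was lowest, with C50 at 57.7%, 47.1%, 12.7% and 42.6% against 98.5%, 100%, 100% and 99.2% in WT.

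Position 34 of tRNA Leu CAA, the wobble base, was covered by 11 to 28 reads. It was 100%, 73.3% and 85.7% unconverted in 3 WT libraries and 7.14%, 4.17% and 38.5% in 3 NSun2 -/- libraries, a difference of -69.8 points (edgeR adjusted p = 0.027). Without WT replicate 1, which had too few reads here but takes part in the fit across cytosines, the adjusted p was 0.05004. The call was also lost when a term for the replicate number was added to the fit. Position 34 of Leu CAA held the only lower call in cytosolic tRNA outside positions 48 to 50.

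C38, the Dnmt2 position, was lower by edgeR at none of the 45 cytosines tested there and higher at 5, with none in either direction by limma. The higher ones were 2 in Glu CTC (mean 4.27% in WT, 22.8% in NSun2 -/- skin) and 3 in Glu TTC (4.81%, 33.1%). NSun2 -/- replicate 3 read 1.23% and 1.07% there. None was in Asp GTC, Gly GCC or Val AAC, the tRNAs to which the paper limits Dnmt2 methylation. An unadjusted p under 0.05 was found at 18 of the 45, with 1 of them lower and 16 higher by at least 10 points. In Asp GTC it was 81.2%, 77.9%, 88.7% and 83.9% in WT and 93.4%, 96%, 87.1% and 92.0% in NSun2 -/- libraries. In Gly GCC it was 94.2% ± 1.20 in WT and 95.2% ± 0.835 in NSun2 -/- skin, and in Val AAC 58.3% ± 10.3 and 58.9% ± 6.61 (SD, n = 4 and 4). None of these 3 passed the test, so C38 stayed high in the libraries in which C48 to C50 of the Asp and Gly tRNAs fell. Averaged over all genes, C38 of Asp GTC (9 cytosines) was 77.5% to 88.7% in WT and 90.4% to 94.0% in NSun2 -/- libraries. For Val AAC (3 cytosines) it was 58.9% to 63.4% and 69.0% to 74.1%, so both were higher in every NSun2 -/- library, without a call. Gly GCC (10 cytosines) overlapped, at 87.6% ± 2.78 and 86.0% ± 1.19.

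In other tRNAs no cytosine of the described gene was called. C48 of tRNA Tyr GTA read 32.0%, 36.3%, 24.5% and 25.7% in WT and 8.20%, 18.9%, 2.21% and 6.52% in NSun2 -/- libraries, groups that were apart, with no call over all libraries (edgeR adjusted p = 0.27) and an adjusted p of 0.001 without NSun2 -/- replicate 2. Gly ACC averaged 4.54% ± 1.97 over its 3 cytosines in WT and 1.61% ± 0.81 in NSun2 -/- skin (n = 3 and 3), and Ala AGC had 7.94% ± 8.36 and 10.1% ± 7.07 at C50 (n = 3 and 3). Lys CTT C48, at 80.7%, 83.2%, 78.7% and 83.5% in WT and 51.8%, 51.5%, 23.9% and 59.2% in NSun2 -/- libraries, also had groups apart without a call in this gene, while 5 of the 8 Lys CTT cytosines fell.

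**Figure D2:**
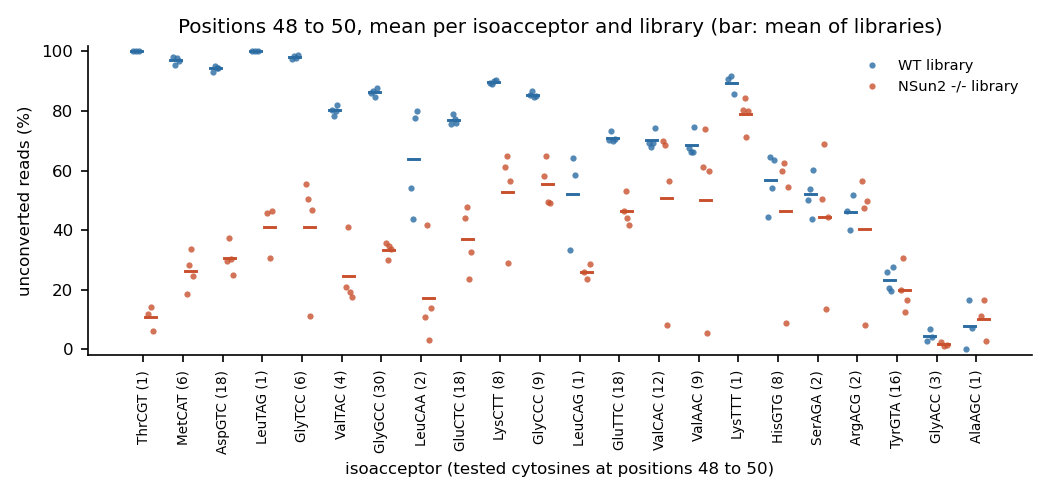
Percent of unconverted reads averaged over the tested cytosines at positions 48 to 50 of each tRNA isoacceptor, in order of the change. Each point is a library (blue WT, red NSun2 -/-) and each bar the mean of its libraries, and the number of cytosines stands in brackets. Thr CGT, Met CAT and Asp GTC show the widest gaps, and a single red point near the bottom of Val CAC, Val AAC, His GTG, Arg ACG and Ser AGA is NSun2 -/- replicate 3.

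To ask whether the isotypes differed in their loss, the mean at positions 48 to 50 of each isotype was set against that of all other isotypes within each library, and this difference was compared between genotypes by an exact two-sided permutation test, whose smallest p with 4 against 4 libraries is 0.0286. Asp (own change -63.7 points), Met (-71.0 points) and Gly (-46.7 points) lost more than the others, by 30.7, 36.0 and 14.6 points (exact p = 0.0286 for each, 0.0743 adjusted over the isotypes). The Met value rests on 6 genes that share 1 sequence. In WT, Asp, Met and Gly already stood above the others by 22.4, 23.7 and 13.3 points. Their margins in NSun2 -/- libraries were -8.27, -12.3 and -1.30 points, so most of each difference lay in the WT level. Ser lost less than the others by 28.8 points (exact p = 0.0286, 0.0743 adjusted), on 2 cytosines of 1 gene that went opposite ways. C48 of that Ser AGA gene fell from 95.6% ± 8.75 to 46.3% ± 17.9 (edgeR adjusted p = 0.0022), a call lost without WT replicate 1 or 4 or NSun2 -/- replicate 1 (adjusted p = 0.055, 0.0794 and 0.0623), and C50 was at 8.29% ± 8.72 in WT and 42.2% ± 28.6 in NSun2 -/- skin without a call. Tyr changed by -3.51 points from a WT mean of 23.3%, a level too low for a loss as large as that of Gly, so its smaller loss in points was given no reading. None of these passed after adjustment, and the other isotypes had exact p-values of 0.0571 to 0.8. Thr, with 1 cytosine covered in 3 libraries of each genotype, cannot go below 0.1. For Ser, NSun2 -/- replicate 3 read 13.5% against 44.4% to 68.8% in the other 3, and for Val 9.03% against 51.0% to 65.7%.

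Neighbouring positions were compared within genes in the same way. Over 50 genes (18 sequences) with both cytosines tested, C49 exceeded C48 by 9.33, 6.27, 9.54 and 12.4 points in WT libraries and the difference was -9.63, -9.82, -3.35 and -11.8 points in NSun2 -/- libraries. The loss was thus larger at C49 than at C48 by 18.0 points (exact p = 0.0286, 0.0286 adjusted over both pairs), with a larger loss at C49 in 41 of the 50 genes. When the reads of all genes were summed, so that the deepest genes dominate, the difference was -6.38 points and did not pass (exact p = 0.314). Over 36 genes (15 sequences), C50 lost 10.9 points less than C49 (exact p = 0.0286), although C50 lost more in 16 of the 36 genes, and this turned to a loss 7.39 points larger with summed reads (exact p = 0.0857). The order of C49 and C50 therefore depended on how genes were weighted.

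Across positions, only 48, 49 and 50 had means that were lower in every NSun2 -/- library. The mean over 79 cytosines at position 48 was 72.5%, 76.1%, 72.8% and 73.9% in WT and 42.97%, 50.8%, 26.6% and 39.3% in NSun2 -/- libraries. Position 49 (51 cytosines) went from 83.1% ± 1.84 to 34.7% ± 8.43, and position 50 (46 cytosines) from 65.1% ± 3.38 to 38.5% ± 9.91 (SD, n = 4 and 4; exact p = 0.0286 each, 0.257 adjusted over the positions). At the other positions from 34 to 72 the groups overlapped, and the NSun2 -/- mean was the higher one. In the TΨC stem and acceptor stem, positions 61 to 72, WT means ran from 9.10% to 37.6%. Position 38 stood at 49.1% ± 2.51 in WT and 60.4% ± 9.30 in NSun2 -/- skin.

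**Figure D3:**
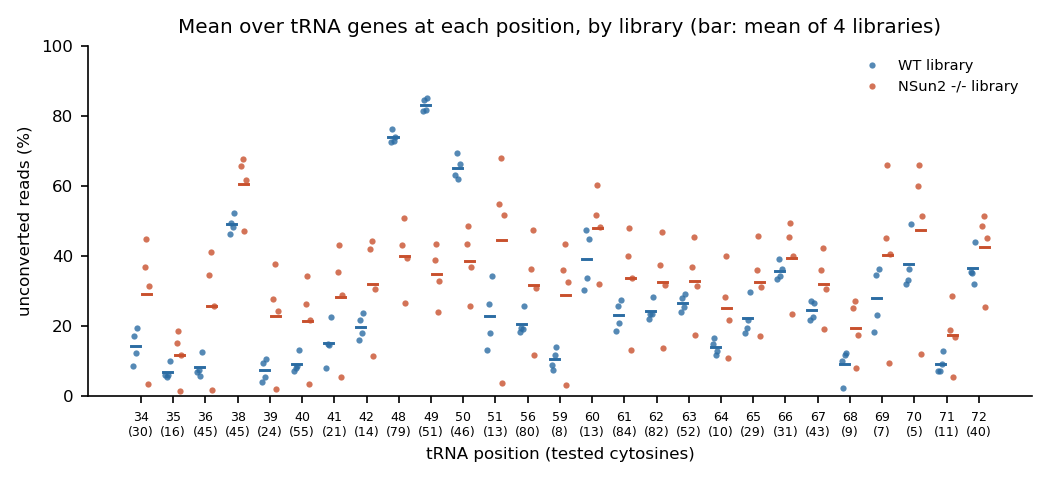
Percent of unconverted reads at each tRNA position with at least 5 tested cytosines, averaged over genes within each library (blue WT, red NSun2 -/- points; bars are means of 4 libraries; number of cytosines in brackets). At positions 48, 49 and 50 all red points lie below all blue points, while elsewhere 3 red points lie mostly above the blue ones and NSun2 -/- replicate 3 below them.

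The higher calls in cytosolic tRNA genes had another pattern. Of 92, 41 were 5′ of the anticodon and only 1 at positions 48 to 50. They came from 5 isoacceptors, with 28 in Asp GTC, 28 in Glu CTC, 19 in Glu TTC, 12 in Val CAC and 5 in Val AAC. At 74 of the 92 the genotypes overlapped, and at each of these 74 NSun2 -/- replicate 3 lay within or below the WT range while the other NSun2 -/- libraries all lay above it. Most of the 18 with the genotypes apart had fewer than 10 reads in NSun2 -/- replicate 3. One is chr1:173041604 in a Val CAC gene, at 81.0%, 88% and 78.4% in NSun2 -/- replicates 1, 2 and 4. At chr1:173041613 in that gene, where replicate 3 was covered, it read 0% against 73.3%, 79.2% and 64.3% in the others. At chr10:90644859 in an Asp GTC gene, apart with all libraries covered, replicate 3 read 10.4% and the highest WT library 6.37%. An example just 3′ of a tRNA end, chosen after its values were seen, is chr9:104310996, 1 base beyond a Glu TTC gene, with 4.00%, 4.97%, 4.04% and 9.46% in WT and 52.2%, 55.1%, 5.03% and 48.6% in NSun2 -/- libraries. The tRNA background given above was averaged over cytosines that include 41 of these 92, so that it moved with the higher calls is no separate observation. Only 1 of the 92 was called in every fit without a single library, where a cytosine that a fit could not test counted as lost.

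Outside the 249 tRNA genes whose coordinates came from the study, 580 tested cytosines lay in tRNA-like loci. These loci matched one of the 249 genes over at least 50 bases at 85% identity or more. Whether they are tRNA genes themselves was not tested. Of the 580 cytosines, 194 lay in loci identical to a tRNA gene over the match, among them all 47 in Asp GTC-like loci. In the 580, 38 fell (6.55%) and 18 rose by edgeR, and 41 fell and none rose by limma. Of the 64 cytosines aligned to positions 48 to 50, 34 fell. The losses were in loci like 8 isoacceptors, among them 14 cytosines in Glu CTC-like loci with mean WT and NSun2 -/- levels of 89.6% and 27.4%, 9 in Gly GCC-like loci with 88.1% and 51.4%, and 6 in Asp GTC-like loci with 98.0% and 28.7%. A Glu CTC-like locus on chromosome 1, at 87.5% identity the most distant one described here, read 88.2%, 91.7%, 94.6% and 90.9% at chr1:158423932 in WT and 30.0%, 20.0%, 4.35% and 20.6% in NSun2 -/- libraries, on 10 to 44 reads. The next cytosine, chr1:158423933, fell as well (edgeR adjusted p = 1.7e-05). These 2 cytosines align to positions 49 and 50 of the tRNA.

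Mitochondrial RNAs are made from a separate genome, and their tRNAs are short and often irregular in shape. Of 84 cytosines tested in mitochondrial tRNAs 3 fell, one each in mt-Tl1 (tRNA Leu UUR), mt-Te (tRNA Glu) and mt-Ts2 (tRNA Ser AGY), and none rose. These are shown on the RNA strand with the fallen cytosine in capitals:
mt-Tl1, chrM:2705-2745, plus strand: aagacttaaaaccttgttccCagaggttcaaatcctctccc
mt-Te, chrM:14075-14115, minus strand: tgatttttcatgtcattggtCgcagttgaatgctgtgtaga
mt-Ts2, chrM:11626-11666, plus strand: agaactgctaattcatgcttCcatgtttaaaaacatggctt

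At chrM:2725 in mt-Tl1 the unconverted percent was 88.8, 95.2, 95.0 and 91.3 in WT and 13.6, 13.5, 3.73 and 9.96 in NSun2 -/- libraries, on 84 to 429 reads (edgeR adjusted p = 1.1e-12). The 12 compared cytosines within 20 bases had means of at most 8.19% in WT, so a single cytosine carried the signal. At chrM:14095 in mt-Te it was 94.4, 90, 92.1 and 95.8 in WT and 26.1, 26.7 and 23.1 in 3 NSun2 -/- libraries, on 10 to 48 reads (edgeR adjusted p = 6.0e-04). At chrM:11646 in mt-Ts2 it was 82.4, 72.1, 78.7 and 81.4 in WT and 28.4, 42.6, 1.64 and 17.6 in NSun2 -/- libraries (edgeR adjusted p = 2.0e-04, limma adjusted p = 0.066). The genotypes were apart at each of the 3.

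A nuclear locus at chr4:79649843 (minus strand) carries the same bases around its cytosine as mt-Te above. It read 100%, 90.9%, 100% and 100% in WT and 58.3%, 73.7%, 5.26% and 43.5% in NSun2 -/- libraries, on 11 to 36 reads (edgeR adjusted p = 5.4e-04). Whether its reads came from the nuclear or the mitochondrial copy cannot be told from these files.

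Other mitochondrial cytosines with high unconverted levels had no call. In mt-Tl2, chrM:11701 was 89.2%, 83.3%, 88.5% and 89.6% in WT and 86.6%, 87.1%, 87.7% and 73.7% in NSun2 -/- libraries. In the 12S rRNA (mt-Rnr1), chrM:911 was 75.3% ± 9.48 (n = 4) in WT and 70.7% ± 16.5 (n = 3) in NSun2 -/- skin, and chrM:909 60.3% ± 4.37 and 52.4% ± 9.72 (n = 4 and 4). Neither the 458 cytosines of the mitochondrial rRNAs nor the 201 of mitochondrial mRNAs held a call by edgeR or limma. An unadjusted p under 0.05 was found at 59 and 15 of them, none of which was lower and 48 and 2 of which were higher by 10 points or more.

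Small non-coding RNAs of the nucleus, which guide splicing, RNA modification and other processes, held 2 lower calls and no higher call among 7941 tested cytosines (0.0252%). Both lay in copies of the C/D box small nucleolar RNA SNORD62, in the 41-base windows printed here with identical letters:
SNORD62, chr2:32077524-32077564, plus strand: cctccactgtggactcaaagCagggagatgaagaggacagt
AL808027.3, chr2:32081207-32081247, plus strand: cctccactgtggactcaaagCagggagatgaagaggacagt

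At chr2:32077544 the unconverted percent was 72, 90, 84.6 and 90.5 in WT and 8.15, 3.94 and 2.47 in NSun2 -/- libraries (edgeR adjusted p = 5.7e-08). At chr2:32081227 it was 70.0, 83.0, 70.5 and 75.0 in WT and 4.51, 9.30, 5.20 and 4.07 in NSun2 -/- libraries, on 43 to 443 reads (edgeR adjusted p = 1.4e-08). The 8 neighbouring compared cytosines of each window had WT means of at most 12.6% and 4.73%. The other cytosines of both windows were thus low in WT as well.

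No cytosine was called by edgeR in the vault RNA, a known NSun2 substrate with 43 tested cytosines whose highest WT mean was 7.13%, and none of these had an unadjusted p under 0.05. None was called among 336 cytosines of 7SK genes, 113 of 5S rRNA, 91 of RNase MRP, 82 of Y RNA genes, 2920 of H/ACA snoRNAs, 617 of scaRNAs, 35 of miRNA genes, or 732, 184, 359, 65, 105 and 56 of the U1, U2, U3, U4, U5 and U6 snRNA and snoRNA genes. Over all small RNA families without an edgeR call, 5857 cytosines, limma called none either, and an unadjusted p under 0.05 was found at 124, none of them lower and 57 higher by 10 points or more. Many of these RNAs had high unconverted levels in both genotypes. In 5S rRNA the highest WT mean was 99.8%, and 11 cytosines had a WT mean of at least 20%.

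In protein-coding RNA a single one of 72722 coding-exon cytosines fell, and none of 17118 in untranslated exons by edgeR or limma. In coding exons an edgeR unadjusted p under 0.05 was found at 1561, with 42 lower and 240 higher by 10 points or more. In untranslated exons it was found at 374, with 6 lower and 69 higher. Limma centred on coding exons called 6 coding-exon cytosines lower. The single edgeR call lies in a coding exon of Col1a1, the main chain of type I collagen and one of the deepest RNAs in skin:
Col1a1, chr11:94803352-94803392, plus strand: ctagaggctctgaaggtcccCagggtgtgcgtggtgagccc

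At chr11:94803372, on 2366 to 33846 reads, 15.4%, 13.97%, 14.2% and 15.7% of reads were unconverted in WT and 0.99%, 2.24%, 1.01% and 1.18% in NSun2 -/- libraries (edgeR adjusted p = 3.6e-08). The WT libraries differed by less than 2 points, and the NSun2 -/- level was within the background of the 10 neighbouring cytosines, whose means were at most 2.01% in WT and 2.23% in NSun2 -/- skin. It was called with every library left out in turn. The cytosine was chosen for description after its values were seen, as were those in mt-Rnr1, mt-Tl2 and Elf1 and those at chr1:173033285, chr1:173033308, chr3:96214112, chr4:79649843, chr6:43286380, chr8:113154413, chr11:68851101, chr12:55797970, chr16:13704501 and chr16:13704502.

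Outside tRNA genes and tRNA-like loci, 34 cytosines fell in all (0.0292% of 116349) and 31 rose (0.0266%) by edgeR. Limma called 17 lower, 14 of them shared, and 11 higher, all of them shared. The genotypes were apart at 18 of the 34, the mitochondrial, SNORD62 and Col1a1 cytosines among them. Leaving out single libraries gave 12 to 52 lower cytosines, the lowest without NSun2 -/- replicate 1 and the highest without NSun2 -/- replicate 2, and 7 to 96 higher ones, the lowest without WT replicate 3 and the highest without NSun2 -/- replicate 3. The lower count was 18, 20 and 15 without WT replicates 1, 3 and 4 and 16 without NSun2 -/- replicate 4. Fewer cytosines could be tested in these fits, from 79029 without NSun2 -/- replicate 1 to 115380 without NSun2 -/- replicate 2. Windows around some of the lower cytosines in introns, a long non-coding RNA and sequence without an annotated gene are these, with each fallen cytosine in capitals:
no annotated gene, chr2:151855326-151855366, minus strand: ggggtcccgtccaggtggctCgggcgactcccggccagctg
Snhg3, chr4:131908632-131908672, minus strand: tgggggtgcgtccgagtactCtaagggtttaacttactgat
Slit3 intron, chr11:35438772-35438812, plus strand: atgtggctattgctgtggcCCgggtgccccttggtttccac
Npnt intron, chr3:132597735-132597775, minus strand: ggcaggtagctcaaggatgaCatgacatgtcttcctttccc
no annotated gene, chr16:13704482-13704522, minus strand: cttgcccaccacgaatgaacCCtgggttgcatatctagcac

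At chr2:151855346 the unconverted percent was 100, 100, 100 and 98.8 in WT and 0, 8.33 and 15.4 in 3 NSun2 -/- libraries, on 10 to 84 reads (edgeR adjusted p = 1.6e-08). Snhg3, a long non-coding RNA that hosts a small nucleolar RNA, read 98.0%, 100% and 99.0% at chr4:131908652 in 3 WT libraries and 10.9%, 5.46% and 20.0% in 3 NSun2 -/- libraries (edgeR adjusted p = 8.1e-11). One of its 3 compared neighbours within 20 bases was at 97.8% in WT and 96.3% in NSun2 -/- skin.

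In an intron of Slit3, which encodes a secreted guidance protein, both cytosines of a CC pair fell. At chr11:35438792 the values were 94.4%, 93.1%, 89.2% and 93.2% in WT and 2.22%, 5.56%, 18.6% and 0% in NSun2 -/- libraries. At chr11:35438791 they were 92.6%, 96.6%, 91.9% and 94.2% in WT and 2.17%, 5.56%, 23.7% and 3.03% in NSun2 -/- libraries (edgeR adjusted p = 5.1e-11 and 8.1e-11). In an intron of Npnt, which encodes the matrix protein nephronectin, chr3:132597755 was 100%, 85.7%, 93.9% and 92.1% in WT and 7.69%, 15.4% and 7.69% in NSun2 -/- libraries. Each of these kept its call in every fit without a single library that could test it. For Npnt these were 5 fits, none of them without NSun2 -/- replicate 1, 3 or 4.

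At chr16:13704502 the values were 100%, 100%, 96.9% and 89.5% in WT and 35.8%, 60.0%, 25.5% and 20.0% in NSun2 -/- libraries. Its neighbour chr16:13704501 was 38.1%, 55.0%, 65.6% and 84.2% in WT and 6.96%, 40.0%, 5.45% and 5.71% in NSun2 -/- libraries, where replicate 2 reached into the WT range. At chr6:43286380, also without an annotated gene, 96.6%, 20.0% and 97.1% in WT stood against 14.6%, 4.52% and 0% in NSun2 -/- libraries, with WT replicate 2 close to the NSun2 -/- values.

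Other lower cytosines lay a short way beyond a tRNA gene on the same strand. Calls in such stretches also went the other way. At chr1:173033291, near chr1:173033308 below, the mean was 28.7% in WT and 69.2% in NSun2 -/- skin, a higher call with overlapping groups. Beyond a Gly GCC gene, chr8:113154415 was called higher, with means of 33.2% in WT and 92.6% in NSun2 -/- skin. In an intron of Elf1, 63 bases beyond a Glu TTC gene, chr14:79881609 read 41.8%, 55.0%, 50.7% and 58.6% in WT and 23.2%, 7.49%, 11.2% and 11.7% in NSun2 -/- libraries, on 187 to 3805 reads (edgeR adjusted p = 0.0095, limma adjusted p = 0.28). At chr1:173033308, also 63 bases beyond a Glu CTC gene, it was 34.2%, 53.5%, 51.7% and 68.2% against 21.9%, 6.18%, 5.83% and 26.3% (edgeR adjusted p = 0.021, limma adjusted p = 0.56). Each of these lost its call without WT replicate 2, 3 or 4, the first also without NSun2 -/- replicate 4 and the second without NSun2 -/- replicate 1. Beyond a Ser AGA gene, chr11:68851101 was 94.1%, 100% and 90.5% in WT and 16.2%, 15.4% and 47.7% in NSun2 -/- libraries, and beyond a His GTG gene, chr3:96214112 was 91.5%, 85.7% and 75.0% in WT and 37.5%, 16.7% and 17.4% in NSun2 -/- libraries. The adjusted p of these last cytosines was 0.067 without NSun2 -/- replicate 4 and 0.073 without WT replicate 2, respectively.

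**Figure D4:**
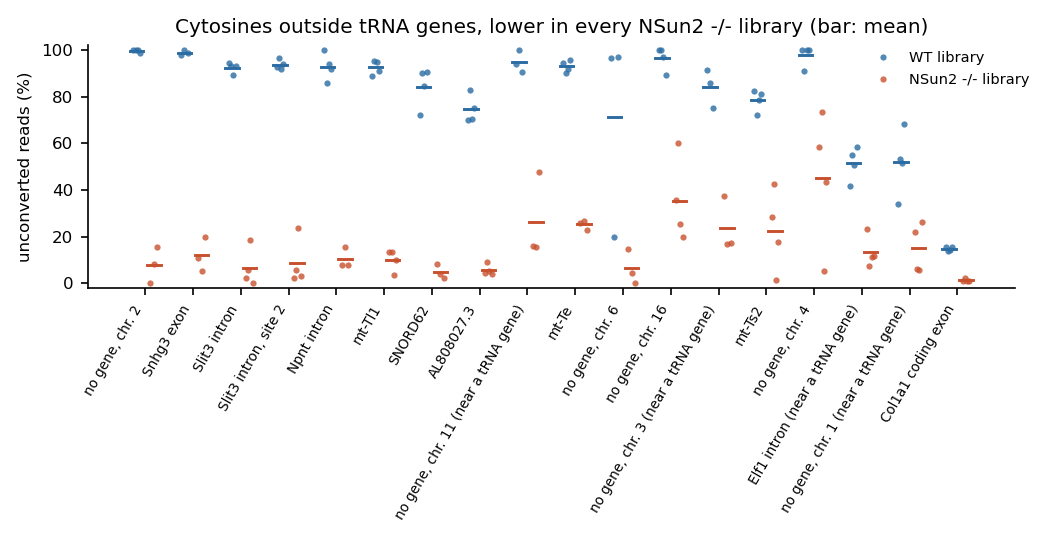
Percent of unconverted reads in each library at the 18 called cytosines outside tRNA genes and tRNA-like loci at which every NSun2 -/- value (red) lies below every WT value (blue). Bars are means of the libraries that covered the cytosine, ordered by the size of the difference. Most fell from above 70%, and the Col1a1 coding-exon cytosine at the right fell from 14.8% to 1.35%.

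WT replicate 2 did not follow the other WT libraries at a group of these cytosines. At 10 of the 34 lower cytosines it lay at or below the highest NSun2 -/- value while the other WT libraries lay above it, which happened at 2 for WT replicate 1 and at none for WT replicates 3 and 4. At chr1:173033285 the WT libraries read 96.7%, 3.47%, 84.5% and 97.0% and the NSun2 -/- libraries 19.1%, 18.6%, 34.5% and 8.68%. At chr12:55797970 they read 94.4%, 0%, 84.2% and 90% against 11.6%, 6.25%, 23.2% and 2.97%. At chr8:113154413 they read 95.0%, 3.47%, 85.9% and 97.6% against 49.2%, 6.78% and 5.797%. WT replicate 2 was not apart in this way at 107 of the 108 lower cytosines in tRNA genes. The cytosines chr1:173033285 and chr8:113154413 lie 40 bases beyond a tRNA gene, and a cytosine close to each was called higher. At chr1:173033282 the values were 17.9%, 96.3%, 4.33% and 4.58% in WT and 89.4%, 94.9%, 81.9% and 63.9% in NSun2 -/- libraries. At chr8:113154415 they were 12.2%, 36.8%, 6.54% and 77.3% in WT and 96.1%, 94.4% and 87.4% in 3 NSun2 -/- libraries.

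Of the 31 cytosines that rose outside tRNA genes and tRNA-like loci, 10 had the genotypes apart, and at 14 of the 31 WT replicate 2 lay at or above the lowest NSun2 -/- value while the other WT libraries lay below it. The largest difference was at chr3:96163841, with 5.83%, 8.82% and 18.2% in 3 WT libraries and 87.0%, 95.9%, 67.1% and 90.04% in NSun2 -/- libraries (edgeR adjusted p = 1.6e-06). A second locus on the same chromosome, chr3:96178143, has the same bases around its cytosine and read 0%, 11.5% and 10% in WT and 85.7%, 77.3%, 50.0% and 85.5% in NSun2 -/- libraries. At chr11:101507023 the WT values were 12.9%, 83.3%, 10% and 0%, and the NSun2 -/- values 97.8%, 100%, 95.1% and 87.1%. In an intron of Col1a1, chr11:94810811 was 10%, 15.4% and 0% in WT and 75.4%, 83.3%, 26.3% and 64.9% in NSun2 -/- libraries, and it lost its call without NSun2 -/- replicate 1 or 4. These higher cytosines lay next to others with high levels in both genotypes, their neighbours within 20 bases reaching WT means of 85.1% to 92.4%:
no annotated gene, chr3:96163821-96163861, minus strand: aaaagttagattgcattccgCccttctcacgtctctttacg
no annotated gene, chr11:101507003-101507043, minus strand: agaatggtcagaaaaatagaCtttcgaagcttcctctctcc

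The letters that follow the changed cytosines were looked at on the RNA strand after the values were seen. A cytosine followed by GGG at once or after 1 further base (CGGG or CNGGG) was found at 6 of the 18 lower cytosines with genotypes apart outside tRNA genes and tRNA-like loci: the pair in Slit3, both SNORD62 copies, Col1a1 and chr2:151855346. It was found at 7 of all 34 lower and at none of the 31 higher ones, against 3.08% of 114404 tested cytosines of the same kind, chromosome 18 left out. In the printed Asp and Gly tRNAs the fallen cytosines stand just before a run of G in the TΨC arm. These are counts of letters and were given no test.

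High unconverted levels in both genotypes were also found outside tRNA genes. At chrX:106030186, with 52 to 195 reads, all reads of all 8 libraries were unconverted, while its 3 compared neighbours within 20 bases were at 0% in both genotypes. At chr13:23545272 the WT libraries were at 100% and the NSun2 -/- libraries at 97.2%, 100%, 95.1% and 99.4%. The other 3 cytosines with the highest WT means and overlapping groups, in an intron of Slit2 and at chr2:3208630 and chr17:84261396, had NSun2 -/- means of 97.9% to 99.8%. None of these 5 passed the test.

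Among the mean levels of whole RNA classes, one was apart between the genotypes before adjustment. The mean over tRNA positions 48 to 50 was 72.5%, 76.9%, 72.5% and 75.1% in WT and 41.9%, 47.9%, 25.6% and 36.7% in NSun2 -/- libraries, a difference of -36.2 points (exact two-sided permutation p = 0.0286, 0.314 adjusted over 11 classes). In the other 10 classes the genotypes overlapped. The mean of tRNA cytosines 5′ of the anticodon was 8.63% ± 3.79 in WT and 21.2% ± 14.3 in NSun2 -/- skin (exact p = 0.143), and without NSun2 -/- replicate 3 the difference grew to 19.1 points (exact p = 0.0286). For the remaining classes the exact p ranged from 0.286 to 0.657, with coding exons at 2.65% ± 0.76 and 4.39% ± 3.26 (SD, n = 4 and 4).

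**Figure D5:**
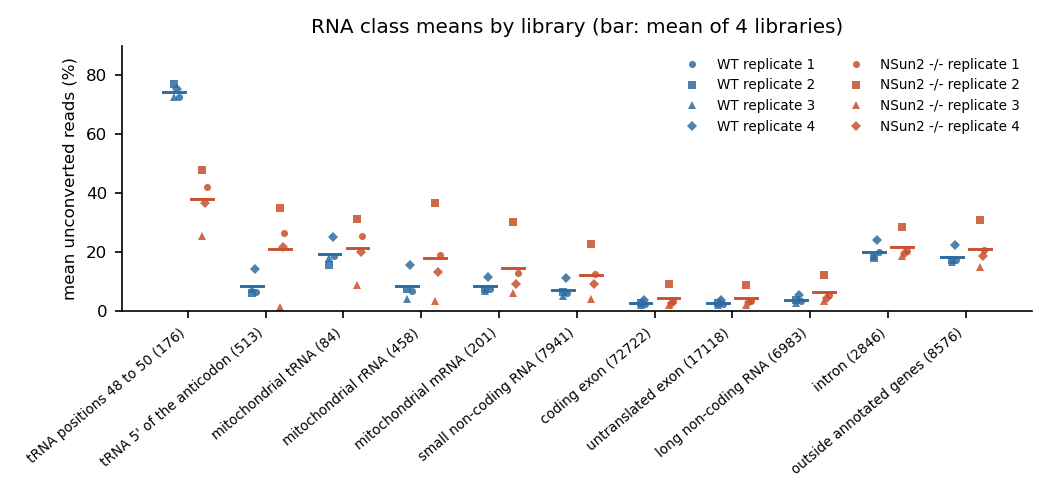
Mean percent of unconverted reads per library for each RNA class (blue WT, red NSun2 -/-; the 4 marker shapes are replicates 1 to 4; bars are means of 4 libraries; tested cytosines in brackets). Positions 48 to 50 of tRNA stand at 72.5% to 76.9% in WT against 25.6% to 47.9% in NSun2 -/- libraries, and in the other classes NSun2 -/- replicate 2 is the highest library, with replicate 3 at or near the bottom.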

How the data were processed

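RNA of back skin was depleted of ribosomal RNA, treated with DNase, converted with bisulphite, amplified in 18 PCR cycles without molecular identifiers and sequenced as single-ended reads. The authors aligned the reads with Bismark 0.7.6, which keeps unique best alignments, and deposited, per library, counts of unconverted and of converted reads wherever a cytosine was read 10 times or more, neither normalised nor pooled. They also deposited the percent of unconverted reads, which is the ratio of these counts. The study's filter on heavily unconverted reads needs the reads themselves and is not applied here. Depth limits precision at 10 reads per library, and counts cover counting error only.

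Positions were counted from 0 and strand was taken from the mm9 base, which was C or G at all 897815 positions. Genes came from GENCODE M1 and the coordinates of 249 tRNA genes from the study. The last base of a tRNA gene was numbered 73, which puts position 49 at the first base of the TΨC arm. A call needed a Benjamini-Hochberg adjusted p under 0.05 over all 118472 tested cytosines in edgeR 4.0.16 (quasi-likelihood test on both counts, with library and genotype terms) and a difference of at least 10 points. Limma 3.58.1 on log2 odds with a prior of 0.5 reads was an alternative. Class, position and isotype means were compared by exact permutation over 70 assignments. The test was tried on simulated data.

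For each tRNA isoacceptor, the gene of highest median coverage was named with its cytosines at positions 48 to 50, besides C34 of Leu CAA and C38 of 3 tRNAs. Called cytosines of mitochondrial and small RNAs, the 10 largest differences per direction with genotypes apart in other RNA, and the 5 highest unchanged cytosines were named too. Members, lists and tests were chosen with earlier results of these data known. The tRNA-seq and Pol III data of the series were not used here. The sequence of a further tRNA gene is not reported here.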

Additional observations from a re-analysis of the deposited data

Results flagged for a closer look

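The loss differed between neighbouring tRNA positions by the exact permutation test, with C49 minus C48 changing by -18.0 points and C50 minus C49 by 10.9 points between genotypes. The loss also differed between isotypes before adjustment, relative to all other isotypes, by -30.7 points for Asp, -14.6 for Gly, -36.0 for Met, 28.8 for Ser and 35.8 for Tyr. The Ser value rests on 2 cytosines of 1 gene, and the Met value on 6 genes that share 1 sequence. The Tyr WT mean of 23.3% limits the loss in points that could be measured there. Asp, Gly and Met already stood above the other isotypes in WT, by 22.4, 13.3 and 23.7 points.

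Single libraries stood far from the others of their group at further values, by a criterion that chance meets in about 1 in 20 groups. NSun2 -/- replicate 3 was the low library at C49 of tRNA Arg ACG (8.33% against 65.8% to 76.2%), C48 of Val AAC (0%) and C50, C49 and C48 of Val CAC (7.69%, 4.44% and 5.56%), and at chr9:104310996 (5.03%). It was the high one at chr11:35438791 in Slit3 (23.7%). NSun2 -/- replicate 2 was high at the Col1a1 cytosine chr11:94803372 (2.24%) and at chr16:13704501 (40.0%), and NSun2 -/- replicate 4 low at chr13:22003290 (78.9%) and in mt-Tl2 at chrM:11701 (73.7%).

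WT replicate 2 stood apart at chr11:101507023 (83.3% against 0% to 12.9% in the other WT libraries), chr12:55797970 (0%), chr1:173033285 (3.47%), chr8:113154413 (3.47%) and chr4:79649843 (90.9% against 100%). WT replicate 3 was low at C48 of Ser AGA (82.5% against 100%) and WT replicate 4 at chr2:151855346 (98.8% against 100%). WT replicate 4 was the high WT library for the mean of tested tRNA cytosines 5′ of the anticodon (14.3%), for cytosines outside annotated genes (22.4%) and for tRNA positions 35 (10.02%) and 56 (25.8%).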

How the results depend on the processing

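Lower calls numbered 180, and 119 with at least 30 reads in 3 libraries of each genotype. Higher calls numbered 141, against 40 with at least 20 reads, 1 with at least 30 reads, 23 with limma and 40 with limma after centring on coding exons, and leaving out single libraries gave 11 to 530 (54, 82 and 46 without WT replicates 1, 2 and 3, and 11, 530 and 24 without NSun2 -/- replicates 1, 3 and 4). The other settings kept both counts within 1.5 times. Fits without a single library tested fewer cytosines, as given above.

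With reads summed over cytosines, the intron mean turned to -7.02 points (exact p = 0.0286) from 1.73, the C50 minus C49 change turned to -7.39 and the C49 minus C48 change was -6.38. With at least 30 reads the C50 minus C49 change was 3.36 (exact p = 0.0571). The Glu isotype passed the unadjusted test with at least 30 reads (11.4), with summed reads (19.0) and, in a setting chosen after seeing the data, with cytosines covered in all 8 libraries (7.24), and His with at least 30 reads (22.7). The cause of these shifts was not tested.

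Without single libraries the difference ran from 7.90 to 19.1 points for tRNA 5′ of the anticodon and, for isotypes against the others, from -35.2 to -28.9 for Asp, 2.96 to 6.30 for Glu, -18.1 to -11.1 for Gly, 23.5 to 35.8 for His, 0.765 to 5.81 for Lys, -42.8 to -32.0 for Met, 23.9 to 35.01 for Ser and 9.02 to 22.4 for Val. Leaving out any WT library took Asp, Gly, Met and Ser past the unadjusted threshold to the other side, while leaving out NSun2 -/- replicate 3 brought tRNA 5′ of the anticodon, His, Lys and Val under it, and leaving out NSun2 -/- replicate 4 brought Glu under it.

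Same-numbered libraries did not deviate together (correlations -0.0147, -0.0645, 0.133 and 0.000516 for replicates 1 to 4), so these deviations showed no pairing by number. Different-numbered libraries ranged from -0.234 to 0.202, and whether the numbers pair the samples in another way was not tested. With the replicate block, 179 cytosines were lower (171 shared) and 151 higher (126 shared). A sign-flip test over the 4 pairs cannot go below 0.125, so the paired differences of -36.2 (positions 48 to 50), -18.0 and 10.9 (neighbouring positions) and -30.7, -14.6, -36.0, 28.8 and 35.8 (Asp, Gly, Met, Ser, Tyr) could not pass it.

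For the named cytosines no alternative reversed a direction of a called value, and 408 of 465 results under other settings and 560 of 627 without single libraries kept their side of the threshold.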
